A study of Homo sapiens with 8 samples.

Results

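The glycolysis and hypoxia genes are 45 human genes chosen by symbol, from the glucose transporters and glycolytic enzymes to *HIF1A* and a group of its targets, and 44 of them were among the 13842 genes with a value in the normalized table. *SLC2A3* was not analysed here. The study asked how the long noncoding RNA *MALINC1* alters the transcriptome of normal and pre-invasive breast cells, and RNA-seq was run on 8 libraries, 2 in each of 4 groups. MCF10A is a non-tumorigenic breast epithelial line, and DCIS.COM, a line of the MCF10 series, is a model of ductal carcinoma in situ. Each line carried the lentiviral vector pLOC, either without an insert (pLOC-empty) or with the *MALINC1* sequence (pLOC-*MALINC1*), and all cells were stably transduced and selected with blasticidin. RNA came from subconfluent plates. MCF10A was grown in DMEM/F-12 with horse serum, epidermal growth factor, hydrocortisone, insulin and cholera toxin. For DCIS.COM the labels give the same base medium with horse serum only, so that line and medium cannot be told apart. The labels do not say whether the libraries of a group came from separate transductions or cultures, so that p-values measure only the spread between these libraries, which may be technical. No oxygen or glucose condition is named for any group.

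Glycolysis splits glucose into pyruvate in the cytosol. Hexokinase traps the sugar, phosphofructokinase commits it, the later enzymes yield ATP, and lactate dehydrogenase turns pyruvate into lactate, which leaves the cell through monocarboxylate transporters. When oxygen is scarce, prolyl hydroxylases no longer mark HIF1A protein for destruction, and HIF1A with its partner ARNT binds DNA elements with the core ACGTG or GCGTG to raise many genes of this pathway, together with genes for pH control, vessel growth and mitophagy. *HIF1A* is regulated largely at the protein level, which RNA-seq does not measure.

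Levels are given as CPM of each library (read counts scaled to a library size that the authors had normalized). Changes are log2 fold changes of pLOC-*MALINC1* against pLOC-empty with their standard error (SE). The sums of CPM therefore differ between libraries. In DCIS.COM they were 1005224 and 984591 with the empty vector and 930345 and 904385 with *MALINC1*. A fit on plain library sizes was not run. A gene is said to rise, fall or differ where its adjusted p in the limma fit over all 13842 genes was below 0.01, and to be past 2-fold where the change was also more than 2-fold. The transduced gene *MALINC1* stood at 1.07 and 1.58 CPM in MCF10A with the empty vector and at 13.3 and 11.8 CPM with *MALINC1*, and at 1.42 and 1.22 CPM against 24.5 and 19.2 CPM in DCIS.COM. Libraries held 20604377 to 37550457 reads on genes. The 6 basal epithelial markers summed to 3850 to 35800 CPM per group, whereas 1 of 5 fibroblast, 2 of 4 leukocyte and 1 of 3 endothelial markers had a row, with group sums of 1.63 to 15.5, 4.29 to 14.3 and 0.204 to 6.71 CPM. The endothelial marker with a row, *PECAM1*, had 6.13 and 7.28 CPM in DCIS.COM with the empty vector and 0.159 and 0.249 CPM with *MALINC1*, and 0.751 to 1.11 CPM in MCF10A, so that it moved with the vector comparison in DCIS.COM, and its part in the results was not tested. Of the defining markers, *COL1A2*, *PDGFRA*, *PTPRC*, *CD3E*, *CDH5* and *VWF* had no row. The small cytoplasmic RNAs *RN7SL1* and *RN7SL2* made up 15.7% and 14.0% of the total in DCIS.COM with the empty vector and 11.5% and 8.21% with *MALINC1*. Rescaling without them was tried as an alternative. It acts on values that the authors had already normalized, so it does not isolate the part of these RNAs.

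In DCIS.COM, most glycolysis and hypoxia genes were lower with *MALINC1*. Of the 44 genes, 32 fell, 2 rose (*ENO2* and *CA12*) and 10 did not pass the test, whereas 16.7% of all genes fell and 16.4% rose. The median log2 fold change was -0.37, against 0.01 over all genes. Highly expressed genes pass the test more often, yet of the genes with a mean of 50 CPM or more 25.1% fell, against 72.7% of the glycolysis and hypoxia genes. Past 2-fold were 4 of the 44 genes, all lower (*SLC16A3*, *ANGPTL4*, *BNIP3L* and *PFKFB4*), against 4.53% of all genes in either direction. Rescaling without *RN7SL1* and *RN7SL2* gave a median of -0.45 for the 44 genes and of -0.07 for all genes, and quantile normalization gave -0.29 and 0.03. In bulk RNA, fewer cells with a transcript and less transcript per cell cannot be told apart.

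**Figure D1:**
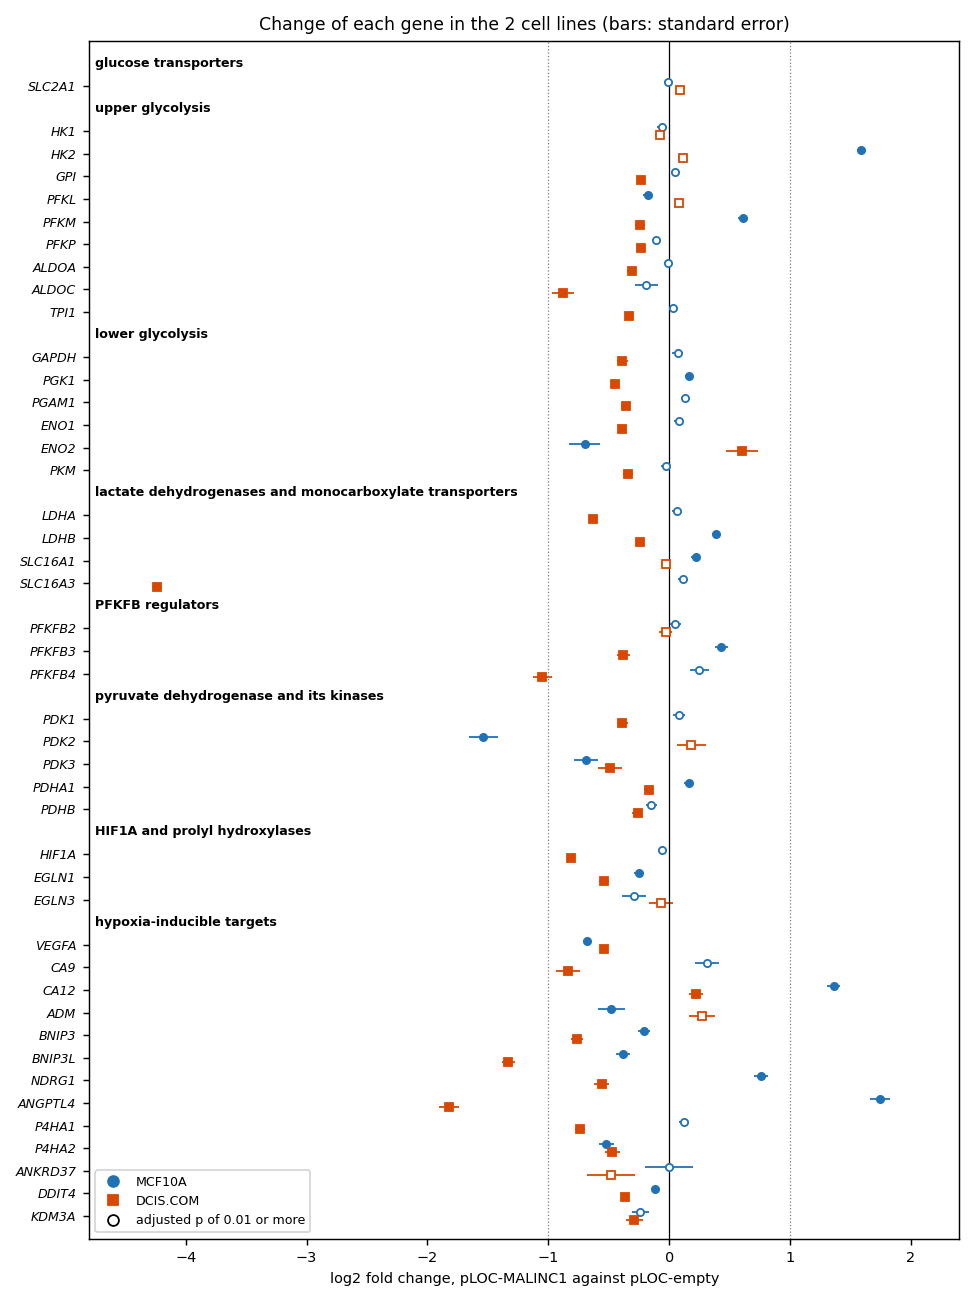
Log2 fold change of pLOC-MALINC1 against pLOC-empty (x axis) for each of the 44 genes, grouped by role, in MCF10A (blue circles) and DCIS.COM (orange squares). Filled symbols had an adjusted p below 0.01, bars are standard errors and dotted lines mark 2-fold. In DCIS.COM 37 of the 44 values lie below 0 and SLC16A3 lies far to the left of the others, at -4.24, whereas the MCF10A values lie on both sides of 0.

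The first steps of the pathway did not pass the test in DCIS.COM for *SLC2A1*, *HK1* and *HK2*. *SLC2A1*, the widespread glucose carrier GLUT1, had 275 and 268 CPM with the empty vector and 280 and 296 CPM with *MALINC1* (log2 fold change 0.09, 95% interval 0.01 to 0.16, adjusted p = 0.0602). The hexokinases *HK1* and *HK2*, which phosphorylate glucose, had log2 fold changes of -0.08 and 0.11 with adjusted p-values of 0.0993 and 0.03. *PFKL*, the liver-type phosphofructokinase, had a log2 fold change of 0.08 (adjusted p = 0.0908).

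From there on, the enzymes fell together by small amounts. Of the 17 enzymes from hexokinase to lactate dehydrogenase, 13 fell, 1 rose and 3 did not pass the test, with a median log2 fold change of -0.31. In the upper part of the pathway, the isomerase *GPI* fell by 0.23, the phosphofructokinases *PFKM* and *PFKP* by 0.24 and 0.23, the aldolase *ALDOA* by 0.31 and the triosephosphate isomerase *TPI1* by 0.33 on the log2 scale. The aldolase *ALDOC*, at 42.0 and 41.2 CPM with the empty vector and 21.2 and 23.9 CPM with *MALINC1*, fell most among the enzymes, by 0.88 (SE 0.093, adjusted p = 9.09e-06).

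In the lower part, *GAPDH*, which makes the first NADH of the pathway, fell by 0.39, the ATP-forming phosphoglycerate kinase *PGK1* by 0.45, the mutase *PGAM1* by 0.36, the enolase *ENO1* by 0.39 and the pyruvate kinase *PKM* by 0.34 on the log2 scale. All of them had high levels. Per kilobase of exon, the mean level of *GAPDH* in DCIS.COM with the empty vector was 3050 CPM, and those of *ENO1*, *PKM*, *ALDOA*, *TPI1* and *PGAM1* were 579, 384, 366, 329 and 325 CPM. Their order depends on the annotation, since each level was divided by the union of all annotated exons. Quantile normalization, which forces the highest values of every library to be alike, ended the calls of *GAPDH* (-0.10, adjusted p = 0.0995), *ENO1* (-0.15, adjusted p = 0.0174) and *PKM* (-0.02, adjusted p = 0.562).

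*ENO2*, the neuronal enolase, went the other way at a low level. It had 6.51 and 7.61 CPM with the empty vector and 10.2 and 11.2 CPM with *MALINC1* in DCIS.COM (log2 fold change 0.60, SE 0.13, adjusted p = 0.00292). The call ended without the first empty-vector library (0.49, adjusted p = 0.0316), and without either *MALINC1* library (0.67 and 0.54, adjusted p = 0.0131 and 0.0351).

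At the pathway's exit, *LDHA*, the subunit that favours lactate formation, had 1830 and 1870 CPM with the empty vector and 1200 and 1180 CPM with *MALINC1*. It fell by 35.5%, more than any glycolytic enzyme except *ALDOC* (log2 fold change -0.63, SE 0.040, adjusted p = 1.06e-07). *LDHB*, the subunit that favours the reverse reaction, fell by 0.24 on the log2 scale. The lactate carrier *SLC16A1* (MCT1), used for uptake and export, had 215 and 220 CPM against 206 and 220 CPM (log2 fold change -0.03, 95% interval -0.11 to 0.05, adjusted p = 0.509).

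The largest change of the 44 genes was in *SLC16A3*, which encodes the lactate exporter MCT4. It had 284 and 281 CPM in DCIS.COM with the empty vector and 14.3 and 15.5 CPM with *MALINC1*, an 18.9-fold lower level (log2 fold change -4.24, SE 0.040, adjusted p = 2.25e-15). In MCF10A it had 341 and 351 CPM with the empty vector and 371 and 374 CPM with *MALINC1* (log2 fold change 0.11, SE 0.040, adjusted p = 0.0384). Thus 6 libraries lay between 281 and 374 CPM, and the 2 DCIS.COM libraries with *MALINC1* lay below all of them. *SLC16A3* spans chr17:80175810-80219005 on the plus strand of GRCh37 (hg19). Of 11 other genes of the table that start within 200 kb, 4 rose and 2 fell in DCIS.COM, with log2 fold changes of -1.22 to 0.75. *SECTM1*, at 0.472 and 0.203 CPM, had the lowest of them and was the 1 gene past 2-fold. *CSNK1D*, which overlaps *SLC16A3*, had means of 44.1 and 44.8 CPM, and the nearest gene upstream, *CCDC57*, had 15.1 CPM in both groups.

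**Figure D2:**
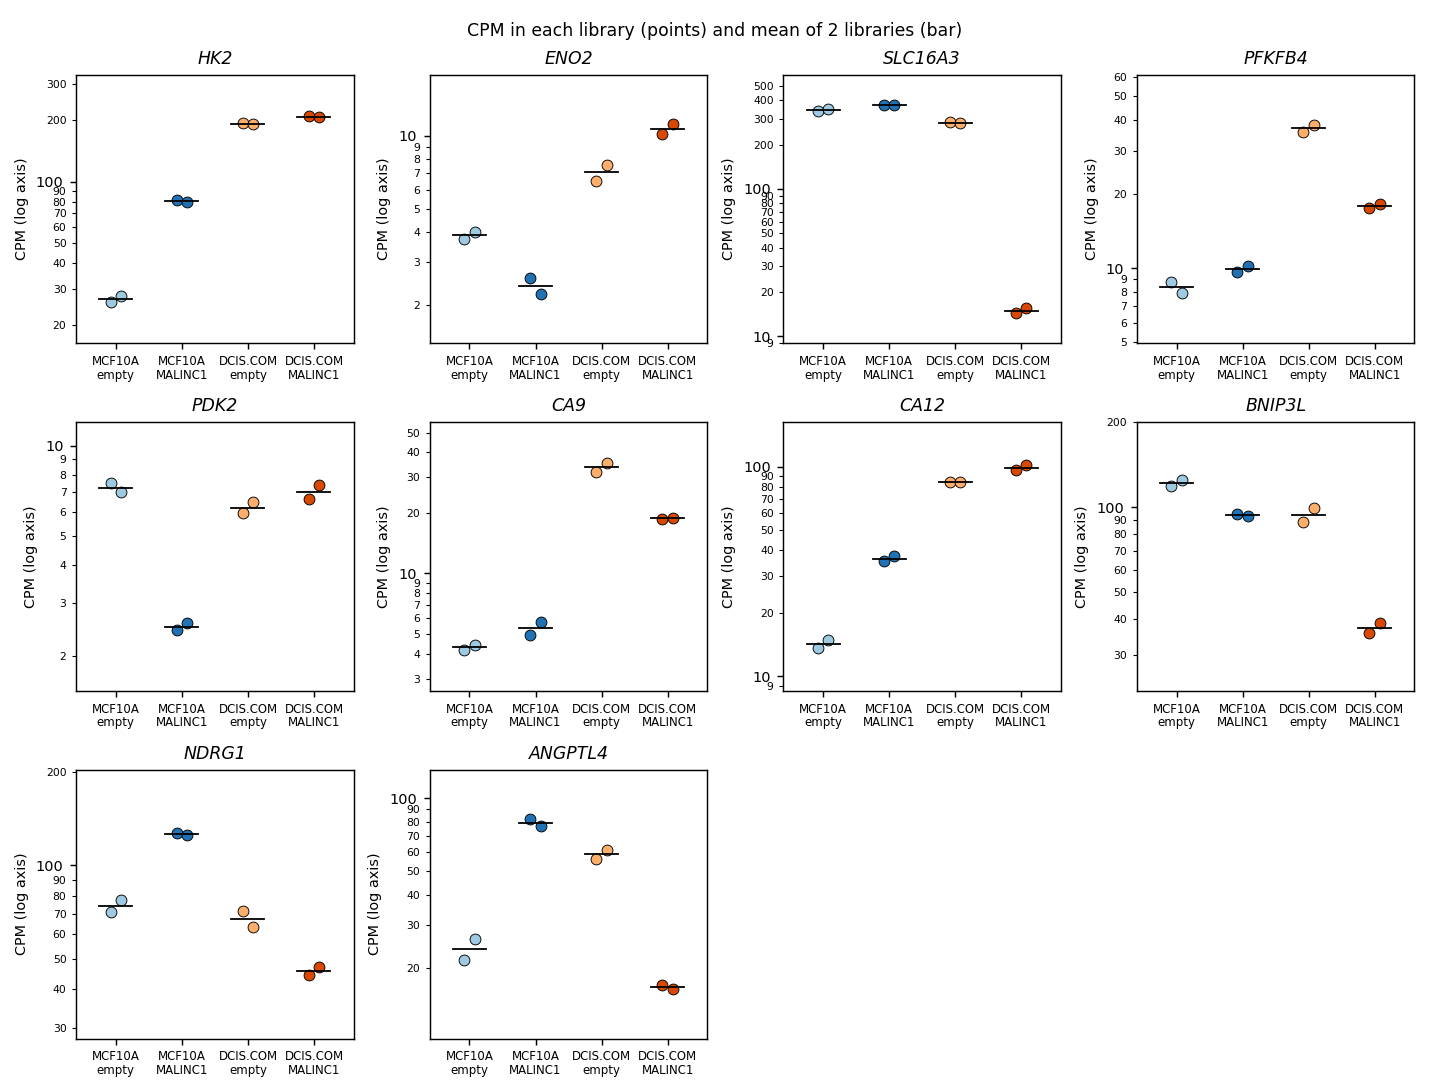
CPM (log axis) of the 10 genes past 2-fold in a vector comparison or in the difference between the lines, in each library (points) with the mean of 2 libraries (bar). In SLC16A3 the DCIS.COM libraries with MALINC1 stand at 14.3 and 15.5 CPM and all others at 281 CPM or more, and in ANGPTL4 the points rise with MALINC1 in MCF10A and fall in DCIS.COM.

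Regulators of flux fell as well in DCIS.COM. *PFKFB4*, which sets the level of the phosphofructokinase activator fructose 2,6-bisphosphate, had 35.7 and 38.3 CPM with the empty vector and 17.5 and 18.2 CPM with *MALINC1* (log2 fold change -1.05, SE 0.080, adjusted p = 5.59e-07). *PFKFB3*, of the same family and with high kinase activity, fell by 0.38 on the log2 scale, whereas *PFKFB2* had a change of -0.03 (adjusted p = 0.649). Of the genes that govern pyruvate entry into the citric acid cycle, the kinases *PDK1* and *PDK3*, which switch pyruvate dehydrogenase off, fell by 0.39 and 0.49. The subunits of the dehydrogenase, *PDHA1* and *PDHB*, fell by 0.17 and 0.26. *PDK2* had 5.95 and 6.47 CPM against 6.65 and 7.37 CPM (log2 fold change 0.18, adjusted p = 0.261). The call of *PDK3* ended without the second empty-vector library (-0.38, adjusted p = 0.0355) or the first *MALINC1* library (-0.35, adjusted p = 0.033), and that of *PDHA1* without each library of the line in turn (-0.16 to -0.17).

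*HIF1A* had 788 and 808 CPM with the empty vector and 446 and 463 CPM with *MALINC1* in DCIS.COM, a fall of 43.0% (log2 fold change -0.81, SE 0.034, adjusted p = 2.44e-09). The prolyl hydroxylase *EGLN1*, the main oxygen sensor acting on HIF1A, fell from 117 and 119 CPM to 77.9 and 84.4 CPM (log2 fold change -0.54). *EGLN3*, a hydroxylase that is itself raised by hypoxia, had 5.43 and 5.66 CPM against 5.34 and 5.24 CPM (log2 fold change -0.07, adjusted p = 0.627). Both genes that fell had no overlap between the groups, which adds little to calls made from the same libraries. How many of all genes were separated in this way is not given here.

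Among the 13 hypoxia-inducible targets, 10 fell in DCIS.COM, 1 rose and 2 did not pass the test, with a median log2 fold change of -0.54. *ANGPTL4*, an inhibitor of lipoprotein lipase, had 56.3 and 60.9 CPM with the empty vector and 17 and 16.3 CPM with *MALINC1* (log2 fold change -1.82, SE 0.082, adjusted p = 5.09e-09). *BNIP3L*, a mitophagy receptor, had 88.5 and 99.4 CPM against 35.7 and 38.9 CPM (log2 fold change -1.33, SE 0.057, adjusted p = 3.12e-09). Its relative *BNIP3* fell by 0.76 and the collagen prolyl hydroxylases *P4HA1* and *P4HA2* by 0.74 and 0.47 on the log2 scale. The carbonic anhydrase *CA9*, a widely used hypoxia marker that controls pH at the cell surface, had 32.0 and 35.3 CPM against 18.7 and 18.8 CPM (log2 fold change -0.84, SE 0.098, adjusted p = 2.09e-05). *VEGFA*, the vessel growth factor, fell from 84.5 and 83.2 CPM to 58.6 and 56.9 CPM (log2 fold change -0.54). In each of these genes the groups did not overlap, which adds little to calls made from the same libraries. The share of all genes separated in this way is not given here.

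The stress-responsive genes *NDRG1* and *DDIT4*, the latter an inhibitor of mTORC1, fell by 0.56 and 0.37 on the log2 scale, and the histone demethylase *KDM3A* by 0.29. The call of *KDM3A* ended without the second empty-vector library (-0.19, adjusted p = 0.0718) and without either *MALINC1* library (-0.30 and -0.29, adjusted p = 0.0316 and 0.0369). *CA12*, another carbonic anhydrase of the cell surface, rose by a small amount, from 84.7 and 84.7 CPM to 96.0 and 102 CPM (log2 fold change 0.22, SE 0.055, adjusted p = 0.00521), and this call ended without each library of the line in turn (0.18 to 0.27). *ADM*, the vasodilator adrenomedullin, had 10.1 and 7.66 CPM against 10.9 and 10.4 CPM (log2 fold change 0.27, adjusted p = 0.0589), and passed the test without the first empty-vector library (0.47, adjusted p = 0.00215). *ANKRD37* was near 1 CPM and had a change of -0.48 with an SE of 0.20 (adjusted p = 0.0664).

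**Figure D3:**
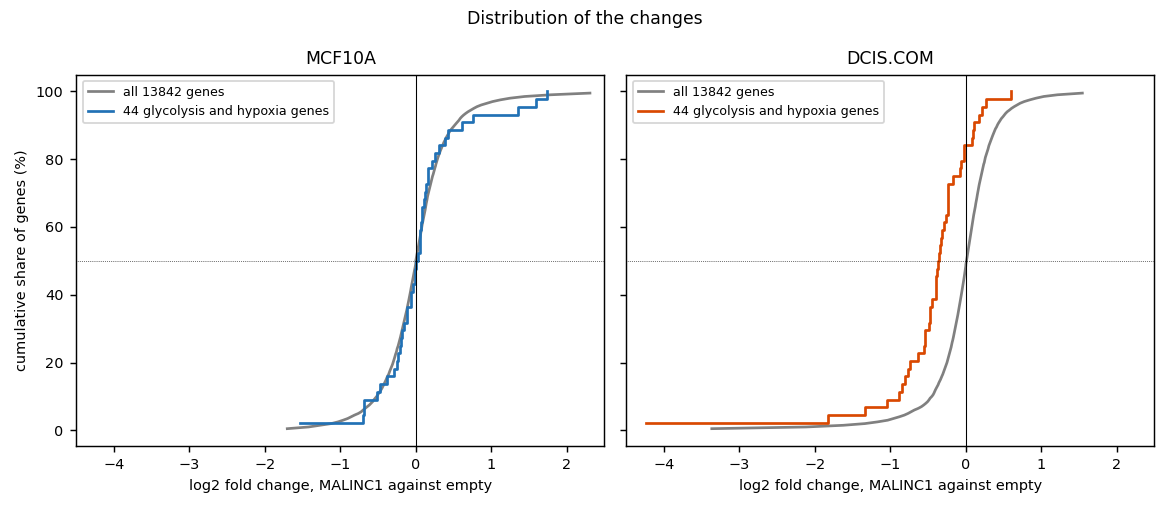
Cumulative share of genes (y axis, %) against the log2 fold change of pLOC-MALINC1 over pLOC-empty (x axis) for the 44 glycolysis and hypoxia genes (coloured steps) and all 13842 genes (grey), in MCF10A (left) and DCIS.COM (right). In MCF10A the curves lie on each other around the median (0.02 for the 44 genes), whereas in DCIS.COM the steps lie to the left of the grey curve, with a median of -0.37 against 0.01.

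In MCF10A, the 44 genes moved in both directions. With *MALINC1*, 10 of the 44 genes rose, 11 fell and 23 did not pass the test, whereas 21.5% of all genes rose and 18.1% fell, so that both shares (22.7% and 25%) lay near those of all genes. The median log2 fold change was 0.02. Past 2-fold were 3 genes that rose (*ANGPTL4*, *HK2* and *CA12*) and 1 that fell (*PDK2*), which are 4 of 44 genes against 5.50% of all genes. Fewer genes fell in other settings, 6 without a trended prior, when MCF10A was fitted alone or without its second *MALINC1* library, and 7 without its second empty-vector library.

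*HK2*, the inducible hexokinase of tumours and growing cells, had 26.0 and 27.6 CPM in MCF10A with the empty vector and 81.7 and 79.5 CPM with *MALINC1* (log2 fold change 1.59, SE 0.038, adjusted p = 2.35e-11). In DCIS.COM it had 193 and 191 CPM against 208 and 207 CPM. Thus the MCF10A libraries with *MALINC1* lay between those of MCF10A with the empty vector and those of DCIS.COM.

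The enzymes moved in both directions in MCF10A. Of the 17 enzymes, 4 rose (*HK2*, *PFKM*, *PGK1* and *LDHB*), 2 fell (*PFKL* and *ENO2*) and 11 did not pass the test, with a median of 0.05. Thus 23.5% rose and 11.8% fell, against 21.5% and 18.1% of all genes. *PFKM*, the muscle-type phosphofructokinase, rose from 27.2 and 27.7 CPM to 41.3 and 42.3 CPM (log2 fold change 0.61) and *LDHB* from 205 and 211 CPM to 266 and 277 CPM (0.39). *ENO2* fell from 3.76 and 4.01 CPM to 2.58 and 2.22 CPM (log2 fold change -0.70, SE 0.13), a call that ended without the second *MALINC1* library (-0.59, adjusted p = 0.0118). *PGK1* and *PFKL* changed by 0.16 and -0.18, and both calls ended without the second library of either group (0.15 for *PGK1*, and -0.16 for *PFKL*). *GAPDH*, *PKM*, *LDHA* and *ENO1*, the high-level enzymes, had log2 fold changes of 0.07, -0.03, 0.06 and 0.08, and the signs of *ENO1* and *PKM* turned under quantile normalization.

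Of the carriers and regulators, *SLC16A1*, *PFKFB3* and *PDHA1* rose in MCF10A and *PDK2* and *PDK3* fell. *SLC16A1* went from 301 and 313 CPM to 356 and 361 CPM (log2 fold change 0.22) and *PFKFB3* from 20.2 and 19.3 CPM to 26.0 and 27.3 CPM (0.43). The rise of *PDHA1* was 0.16, and its call ended without the first empty-vector library or either *MALINC1* library (0.12 to 0.16). *SLC2A1* had 416 and 420 CPM against 418 and 411 CPM (log2 fold change -0.01, 95% interval -0.09 to 0.06). *PDK2* had 7.49 and 7.02 CPM with the empty vector and 2.44 and 2.56 CPM with *MALINC1* (log2 fold change -1.54, SE 0.12, adjusted p = 6.02e-07). *PDK3* fell from 11.3 and 10.1 CPM to 6.26 and 6.98 CPM (log2 fold change -0.69, SE 0.10). In these kinases, each *MALINC1* library lay below each empty-vector library, which adds little to calls made from the same libraries. The share of all genes with such a separation is not given here.

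*HIF1A* had 373 and 359 CPM against 351 and 349 CPM in MCF10A (log2 fold change -0.06, 95% interval -0.14 to 0.01, adjusted p = 0.129), and *EGLN1* fell from 79.7 and 83.4 CPM to 68.0 and 68.7 CPM (-0.25). Of the 13 hypoxia-inducible targets, 3 rose, 6 fell and 4 did not pass the test. *ANGPTL4* had 21.4 and 26.2 CPM with the empty vector and 82.0 and 76.5 CPM with *MALINC1* (log2 fold change 1.74, SE 0.082, adjusted p = 6.66e-09). *CA12* had 13.6 and 14.9 CPM against 35.3 and 37.5 CPM (log2 fold change 1.36, SE 0.055, adjusted p = 1.81e-09), and *NDRG1* had 71.0 and 77.3 CPM against 127 and 125 CPM (0.76). Lower were *VEGFA*, with 241 and 234 CPM against 151 and 146 CPM (log2 fold change -0.68, SE 0.035, adjusted p = 1.77e-08), and *P4HA2* and *BNIP3L*, which fell by 0.52 and 0.38. *ADM* went from 24.2 and 23.2 CPM to 17 and 16.9 CPM (-0.48), a call that ended without each library of the line in turn (-0.45 to -0.52). The small falls of *BNIP3* (-0.21) and *DDIT4* (-0.12) lost their calls as well, *BNIP3* without any library of the line but the first with the empty vector (-0.16 to -0.22), and *DDIT4* without any library of the line (-0.10 to -0.15) or either DCIS.COM library with the empty vector (-0.12).

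The sequences upstream of the genes that moved most are shown because hypoxia response elements often lie near transcript starts. They are RefSeq promoters of the GRCh38.p14 build, from 250 bases before to 50 after a transcript start, written 5′ to 3′ on the strand of the gene, with capitals for ACGTG or its reverse complement CACGT. *ANGPTL4* (chr19:8363905-8364204, plus strand), *HK2* (chr2:74834920-74835219, plus strand) and *PDK2* (chr17:50095101-50095400, plus strand) had the largest changes among the targets and enzymes with a sequence. *SLC16A3* (chr17:82228792-82229091, plus strand) and *LDHA* (chr11:18394313-18394612, plus strand) were added after their values were seen. For a gene with several listed starts, the one with most matches is shown.
ANGPTL4: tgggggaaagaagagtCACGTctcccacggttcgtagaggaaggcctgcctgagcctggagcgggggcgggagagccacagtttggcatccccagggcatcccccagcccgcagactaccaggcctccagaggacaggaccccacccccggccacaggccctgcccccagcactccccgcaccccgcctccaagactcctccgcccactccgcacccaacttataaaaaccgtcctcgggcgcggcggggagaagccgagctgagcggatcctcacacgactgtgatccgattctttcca
HK2: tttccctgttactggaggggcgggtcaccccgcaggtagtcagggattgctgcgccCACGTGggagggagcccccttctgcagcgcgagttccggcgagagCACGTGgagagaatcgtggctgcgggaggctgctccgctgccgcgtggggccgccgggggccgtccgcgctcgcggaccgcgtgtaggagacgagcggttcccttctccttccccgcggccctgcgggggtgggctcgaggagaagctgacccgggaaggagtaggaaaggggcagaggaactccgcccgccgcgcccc
PDK2: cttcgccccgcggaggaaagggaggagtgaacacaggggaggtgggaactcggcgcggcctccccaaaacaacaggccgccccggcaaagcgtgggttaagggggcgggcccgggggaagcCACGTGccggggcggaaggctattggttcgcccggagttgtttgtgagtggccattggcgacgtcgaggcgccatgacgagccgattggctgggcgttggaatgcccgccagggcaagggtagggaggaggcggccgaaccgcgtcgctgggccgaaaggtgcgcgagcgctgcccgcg
SLC16A3: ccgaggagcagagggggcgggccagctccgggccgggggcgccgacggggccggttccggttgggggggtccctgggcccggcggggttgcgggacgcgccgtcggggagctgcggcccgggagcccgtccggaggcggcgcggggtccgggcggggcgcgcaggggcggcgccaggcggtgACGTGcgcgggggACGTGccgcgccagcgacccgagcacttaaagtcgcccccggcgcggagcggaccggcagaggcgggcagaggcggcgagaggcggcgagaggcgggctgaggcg
LDHA: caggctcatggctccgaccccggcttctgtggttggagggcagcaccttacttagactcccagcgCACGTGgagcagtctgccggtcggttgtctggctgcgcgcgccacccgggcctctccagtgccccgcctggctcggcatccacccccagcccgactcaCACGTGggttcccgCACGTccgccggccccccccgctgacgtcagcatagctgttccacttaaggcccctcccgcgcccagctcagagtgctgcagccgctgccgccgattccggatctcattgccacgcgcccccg

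The core ACGTG was found on either strand in 28 of 69 promoters of 39 of the genes (40.6%), against 25.2% of the 15356 promoters of genes in the table and 21.4% of all 35116 RefSeq promoters. The core GCGTG, searched in the same way, was found in 43.5% of the 69 promoters, 47.9% of those of genes in the table and 36.5% of all. The palindrome CACGTG, the E-box core to which MYC and USF proteins bind, contains ACGTG on each strand and is therefore counted 2 times, as in the *HK2*, *PDK2* and *LDHA* sequences. *LDHA* held 5 matches, more than any other promoter of these genes, *HK2* held 4, *SLC16A3* and *PDK2* held 2 and *ANGPTL4* held 1. Thus sequences with the core belonged to genes that rose, fell or did not pass the test with *MALINC1*. The listed promoter of *CA12* held GCGTG but not ACGTG. *SLC16A1*, *PFKFB2* and *VEGFA* were not matched, and *BNIP3L* and *NDRG1* were left out.

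The responses of the lines were compared directly by the interaction contrast, the log2 fold change in DCIS.COM minus that in MCF10A. Of the 44 genes, 33 differed, 29 with a lower and 4 with a higher value in DCIS.COM, whereas 35.9% of all genes differed. Past 2-fold were 9 of the 44 genes, against 9.20% of all. The median difference was -0.41 for these genes and -0.01 for all genes.

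The calls of the vector comparisons are set side by side. These comparisons share no library, but the fit gave them the same estimate of spread for each gene, so their calls are not fully independent. In 7 genes a rise in MCF10A stood beside a fall in DCIS.COM (*PFKM*, *PGK1*, *LDHB*, *PFKFB3*, *PDHA1*, *NDRG1* and *ANGPTL4*), and in *ENO2* the order was the reverse. *ANGPTL4* had the largest such contrast, 3.35-fold higher in MCF10A and 3.52-fold lower in DCIS.COM (difference -3.56, SE 0.12, adjusted p = 2.97e-10). Another 7 genes fell in both lines (*PDK3*, *VEGFA*, *BNIP3*, *BNIP3L*, *EGLN1*, *P4HA2* and *DDIT4*), and *CA12* rose in both. Of all genes, 4.2% rose in MCF10A and fell in DCIS.COM, 3.61% did the reverse, 3.97% fell in both and 5.42% rose in both, against 15.9%, 2.27%, 15.9% and 2.27% of the 44 genes. Among the genes that fell in both, *BNIP3L*, *BNIP3*, *EGLN1* and *DDIT4* differed by -0.95, -0.55, -0.29 and -0.25, and for *EGLN1* the call ended without 4 of the 8 libraries (-0.23 to -0.28). For *VEGFA*, *P4HA2* and *PDK3* the difference between the lines was 0.14, 0.04 and 0.21 and did not pass the test (95% intervals 0.03 to 0.25, -0.14 to 0.23 and -0.10 to 0.51).

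A further 18 genes fell in DCIS.COM and did not pass the test in MCF10A, among them *HIF1A*, *LDHA*, *GAPDH*, *CA9* and *P4HA1*. They are 40.9% of the 44 genes, and 8.57% of all genes had this pair of calls. The difference itself passed the test for *SLC16A3* (-4.35), *PFKFB4* (-1.30), *CA9* (-1.15), *P4HA1* (-0.86), *HIF1A* (-0.75), *LDHA* (-0.69) and *GAPDH* (-0.46), but not for *PFKP* (-0.12), *PDHB* (-0.11) or *KDM3A* (-0.06). *PFKL*, *PDK2* and *ADM* fell in MCF10A and did not pass in DCIS.COM, and their differences of 0.26, 1.71 and 0.76 passed. The same was so of *HK2* and *SLC16A1*, which rose in MCF10A, with differences of -1.48 and -0.26, although that of *SLC16A1* lost its call without the first MCF10A or the second DCIS.COM library with the empty vector (-0.23 and -0.24). *HK1*, *SLC2A1*, *PFKFB2*, *EGLN3* and *ANKRD37* passed in neither line. Quantile normalization ended the difference for *ALDOA* (-0.04, adjusted p = 0.515), *ENO1* (-0.13, adjusted p = 0.111), *PKM* (-0.08, adjusted p = 0.179) and *DDIT4* (-0.07, adjusted p = 0.216).

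The lines differed in these genes before *MALINC1* was added. With the empty vector, 15 of the 44 genes were past 2-fold higher in DCIS.COM than in MCF10A and 4 were past 2-fold lower, against 15.6% and 13.0% of all genes. *CA9* was highest in relative terms, at 4.17 and 4.41 CPM in MCF10A and 32.0 and 35.3 CPM in DCIS.COM (log2 fold change 2.97, SE 0.098, adjusted p = 1.91e-11). *HK2* and *PDK3* were 7.17-fold and 7.15-fold higher, *PDK3* with 11.3 and 10.1 CPM in MCF10A and 70.8 and 82.3 CPM in DCIS.COM. *CA12*, *ALDOC*, *PFKFB4* and *LDHB* were 5.96-fold, 5.37-fold, 4.43-fold and 4.35-fold higher, and *HIF1A* was 2.18-fold higher.

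The 4 genes past 2-fold lower in DCIS.COM with the empty vector were *VEGFA*, *ADM*, *EGLN3* and *PFKP*. *VEGFA* had 241 and 234 CPM in MCF10A and 84.5 and 83.2 CPM in DCIS.COM (log2 fold change -1.5, SE 0.035). *ADM* had 24.2 and 23.2 CPM against 10.1 and 7.66 CPM (-1.43, SE 0.11), and *EGLN3* had 14.5 and 12.6 CPM against 5.43 and 5.66 CPM (-1.28, SE 0.10). *LDHA* was 1.80-fold lower, so that DCIS.COM had more *LDHB* and less *LDHA* than MCF10A. Per kilobase of exon, mean *LDHA* and *LDHB* were 552 and 69.7 CPM in MCF10A, and 307 and 303 CPM in DCIS.COM. The divisor is the union of all annotated exons, 6.03 kb for *LDHA* and 2.98 kb for *LDHB*, so this comparison of genes depends on the annotation. Before the division, the means were 3330 and 208 CPM in MCF10A, and 1850 and 904 CPM in DCIS.COM.

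With *MALINC1* in both lines, 11 of the 44 genes were past 2-fold higher in DCIS.COM and 8 were past 2-fold lower, against 14.4% and 12.2% of all genes. These comparisons share their libraries with those above and are therefore given as values only. *ANGPTL4* was 2.48-fold higher in DCIS.COM with the empty vector and 4.76-fold lower with *MALINC1*, and *SLC16A3* was 1.23-fold lower and 25-fold lower. *HK2* stood 7.17-fold and 2.57-fold higher, *PFKFB4* 4.43-fold and 1.80-fold higher and *HIF1A* 2.18-fold and 1.30-fold higher.

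**Figure D4:**
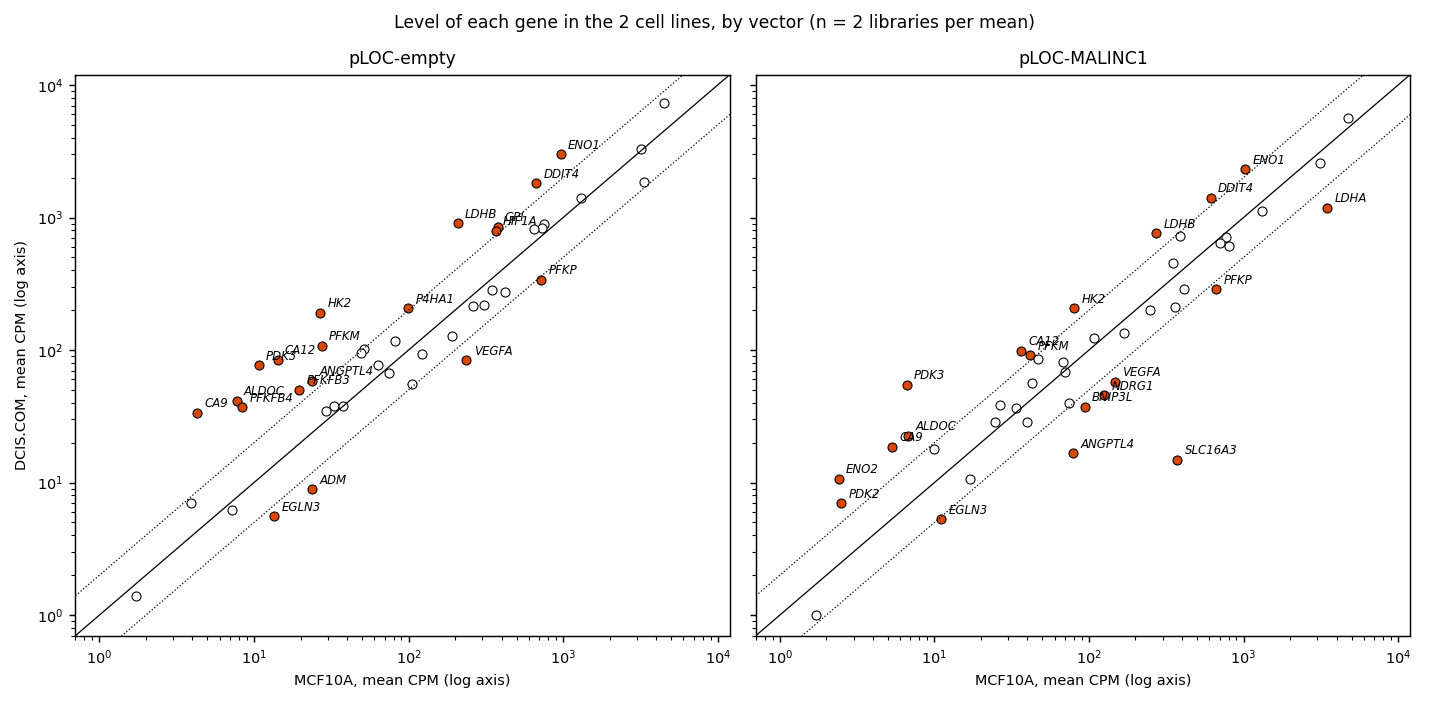
Mean CPM of each of the 44 genes in MCF10A (x axis) and DCIS.COM (y axis), both on log axes, with the empty vector (left) and with MALINC1 (right), n = 2 libraries per mean. The solid line marks equal levels, dotted lines mark 2-fold and filled points were past 2-fold with an adjusted p below 0.01. With the empty vector 15 filled points lie above and 4 below the lines, and with MALINC1 11 lie above and 8 below, SLC16A3 farthest.

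Other genes of the pathway and its surroundings were taken from lists of 102 genes in the table that are not among the 44. Their counts stand against the shares of all genes given above, 16.4% higher and 16.7% lower in DCIS.COM and 21.5% and 18.1% in MCF10A. Of 33 other hypoxia-inducible genes, 25 fell in DCIS.COM, 1 rose and 7 did not pass the test, with a median log2 fold change of -0.50. In MCF10A 12 of them fell and 6 rose, with a median of -0.08. Past 2-fold in DCIS.COM were *TMEM45A*, a membrane protein gene, from 30.2 and 33.2 CPM to 3.65 and 4.0 CPM (-3.05), the bZIP factor *MAFF* (-1.78), the stanniocalcin *STC1* (-1.27), the lysyl oxidase *LOXL2* (-1.16) and *PPFIA4* (-1.10). In MCF10A they included the insulin-like growth factor binding protein *IGFBP3* (-1.86), the lysyl oxidase *LOX* (-1.56) and the heme oxygenase *HMOX1* (-1.26).

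Of 12 other isoenzymes and glucose transporters, 5 fell and 2 rose in DCIS.COM, and 2 rose in MCF10A. The carrier *SLC2A12* fell in DCIS.COM (-1.23) and the sodium-glucose cotransporter *SLC5A1* rose from 10.8 and 12.6 CPM to 23.9 and 26.3 CPM (1.11). Of 10 genes for pyruvate entry into mitochondria, 7 fell in DCIS.COM, with *PDP1*, the phosphatase that switches pyruvate dehydrogenase on, past 2-fold (-1.18), whereas 3 rose and 3 fell in MCF10A. Of 17 citric acid cycle genes, 8 fell in DCIS.COM and the median was -0.16, and 3 rose and 3 fell in MCF10A (17.6% each). Of 7 pentose phosphate genes, 2 rose and 1 fell in DCIS.COM, and 2 rose and 2 fell in MCF10A. Of 7 other genes of the HIF system, 1 rose and 1 fell in DCIS.COM and 2 fell in MCF10A.

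Of 12 integrated stress response targets, 4 fell in DCIS.COM and 5 rose in MCF10A, where *TRIB3*, a pseudokinase of that response, was past 2-fold (1.16). Of 4 genes listed under glucose sensing, with *MYC* counted among them, 2 rose in DCIS.COM, and in MCF10A 2 rose and 1 fell. In each line *MYC* was among those that rose. *MYC*, a transcription factor that binds E-boxes of many glycolytic genes, had 108 and 108 CPM in MCF10A with the empty vector and 238 and 254 CPM with *MALINC1* (log2 fold change 1.19, SE 0.045, adjusted p = 9.81e-10). In DCIS.COM it rose less, from 140 and 133 CPM to 183 and 170 CPM (log2 fold change 0.37, SE 0.045, adjusted p = 3.1e-05), and the difference between the lines passed the test (-0.82, adjusted p = 5.78e-07).

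Several of these transcripts share sequence or position with other genes, and the counting rules for such reads are not given in the sources used here. GENCODE lists pseudogenes named after 18 of the 44 genes, 65 for *GAPDH*, 44 for *BNIP3* and 13 for *PGAM1*, so that their levels are uncertain by the reads these may take. A further limit is that 14 of the 44 genes overlap another gene of the table, among them *SLC16A3*, *ENO2* and *CA9*, and the strand setting of the counts is not stated.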

How the data were processed

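RNA from the 8 libraries was sequenced by the authors as 76 nt paired-end reads from ScriptSeq v2 libraries, aligned to hg19, counted per gene with featureCounts and normalized with edgeR, with no version of these tools given in the sources used here. Each deposited value is a log2 CPM to which a prior count had been added. Whole reads came out of 100% of the values within 0.05 read, 20604377 to 37550457 per library, and genes of low counts have the wider errors. Of 13842 rows, 346 (2.5%) lack a symbol and were kept.

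Group means over the 8 libraries and their contrasts came from limma (version 3.58.1, R 4.3.3) with a trended prior, and p-values were adjusted by Benjamini-Hochberg over all genes. The fit used the deposited log2 values, and voom on the recovered reads was an alternative. The count test of the authors was not run. A filter of 0.5 CPM in 2 or more libraries removed no gene. Calls used an adjusted p below 0.01, and past 2-fold also a fold change over 2. CPM printed for a library are the antilog of the deposited value and include the prior count, and a level per kilobase divides it by the union of GENCODE exons (GRCh37). The steps were tested on simulated data that held only changes past 2-fold, so the smaller changes called here were not covered. Python 3.11.15, pandas 2.3.3, numpy 2.4.6 and matplotlib 3.10.9 made the tables and figures.

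The genes and the other lists were chosen with earlier results of these data known. Values per library are given for genes past 2-fold in a vector comparison or in the difference between the lines, for the 3 largest changes in each line at 5 CPM or more, and for the 3 highest and 3 lowest genes between the lines with the empty vector. Other pathway genes were named where past 2-fold in a vector comparison, except some that are not reported here, and further genes after their values were seen. Alternatives changed the pseudocount, filter, scaling, model, block and threshold, and left out each library in turn.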

Additional observations from a re-analysis of the deposited data

Results flagged for a closer look

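For 9 of the 44 genes the log2 fold changes with *MALINC1* differed between the lines by more than 2-fold (limma interaction contrast, DCIS.COM minus MCF10A, adjusted over all genes), where 9.20% of all genes did. In 7 the value was lower in DCIS.COM. *SLC16A3* differed by -4.35 (SE 0.056, adjusted p = 1.05e-13) and *ANGPTL4* by -3.56 (SE 0.12, adjusted p = 2.97e-10). *HK2* differed by -1.48 (SE 0.054, adjusted p = 6.98e-10), *NDRG1* by -1.32 (SE 0.083, adjusted p = 8.46e-08) and *PFKFB4* by -1.30 (SE 0.11, adjusted p = 1.7e-06). The carbonic anhydrases *CA9* and *CA12* differed by -1.15 (SE 0.14, adjusted p = 2.59e-05) and -1.13 (SE 0.078, adjusted p = 1.88e-07). The value was higher in DCIS.COM for *PDK2*, by 1.71 (SE 0.17, adjusted p = 5.38e-06), and for *ENO2*, by 1.30 (SE 0.19, adjusted p = 0.000125). With 2 libraries in a group, no library could be examined as an outlier of its group.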

How the results depend on the processing

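Of 21 genes called in MCF10A, 34 in DCIS.COM and 33 in the difference between the lines, 11, 24 and 24 stayed called under every alternative tried, each left-out library included, and no called gene changed sign. The number of genes that fell in MCF10A was 11, and 6 without a trend and when the line was fitted alone, where fewer libraries set the spread, and leaving out 1 library gave 6 to 11. The 6 came without the second *MALINC1* library and 7 without the second empty-vector library. The number that rose in DCIS.COM was 2, against 1 after rescaling without *RN7SL1* and *RN7SL2*, 1 without a trend and 0 when fitted alone (limma, 3 at an unadjusted p below 0.05, and 2 by voom on all libraries), and 0 to 2 without 1 library. The 0 came without either DCIS.COM library with *MALINC1* and 1 without either with the empty vector, which was *ADM* without the first and *ENO2* without the second. In MCF10A, *CA9* gained a call without the first *MALINC1* library (0.42, adjusted p = 0.00878) and *KDM3A* without the first DCIS.COM library with the empty vector (-0.23, adjusted p = 0.00977). The cause of these changes was not tested. The number that fell in DCIS.COM was 29 to 32 without 1 library. When that line was fitted alone, *GAPDH*, *PDK3*, *PDHA1*, *PDHB*, *P4HA2* and *KDM3A* lost their calls as falling genes (limma, adjusted p = 0.0105 to 0.0394). Without a trend, *PDK3*, *PDHA1*, *PDHB* and *KDM3A* lost theirs (limma, adjusted p = 0.0124 to 0.0377).

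Signs turned for genes that were not called. In MCF10A these were *TPI1* (-0.0532 by quantile normalization, -0.0222 by median centring and -0.000333 after rescaling), *ENO1* (-0.0191) and *PKM* (0.0543) by quantile normalization, *PFKFB2* (-0.000405 by quantile normalization and -0.00172 by median centring) and *ANKRD37* (-0.0460 by median centring, -0.0241 after rescaling and -0.0101 by voom on whole reads). They were also *PFKL* in DCIS.COM (-0.00346 after rescaling), and in the difference *HK1* (0.0260 by median centring) and *P4HA2* (-0.0122 after rescaling). With 1 library left out, values of uncalled genes spanned 0 for *ALDOA* (-0.0436 to 0.0329) and *ANKRD37* (-0.117 to 0.125) in MCF10A, *SLC16A1* (-0.0791 to 0.0146) in DCIS.COM, and *HK1* (-0.0615 to 0.011), *P4HA2* (-0.0379 to 0.123) and *KDM3A* (-0.157 to 0.0408) in the difference.

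The labels do not say whether replicate numbers pair the libraries. Deviations of same-numbered libraries from their group means had correlations over genes of -0.139 to 0.121, which cannot decide it. With a replicate block 10 genes rose and 11 fell in MCF10A, and 2 rose and 32 fell in DCIS.COM, while *DDIT4* in MCF10A lost its call (adjusted p = 0.0106). With crossed numbers in MCF10A, a setting chosen after seeing the data, 11 rose and 13 fell.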
